A study of Mus musculus with 21 samples.

Results

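The 10 core genes of the circadian clock, *Per1*, *Per2*, *Per3*, *Cry1*, *Cry2*, *Nr1d1*, *Nr1d2*, *Dbp*, *Arntl* and *Clock*, were chosen by name from general knowledge of the clock, with earlier results of these data known. All 10 were among the 21654 genes measured. RNA of the ventral hypothalamus (VH, the circumventricular hypothalamus of the sample names) was sequenced in 21 libraries, each made from punches of 2 mice pooled in equal amounts. The animals were male C57/B6J mice from Jackson Labs (strain label C57/BL6), 12 to 14 weeks old when acquired, and they ate the first diet for several weeks before the switch. RC NoDS mice (n = 5 libraries) ate regular chow (RC) throughout and HFD NoDS mice (n = 5) ate high-fat diet (HFD) throughout. In the diet switch (DS) groups, RC → HFD mice (n = 6) moved from RC to HFD and HFD → RC mice (n = 5) moved from HFD to RC, each for a week before collection. All groups were killed by cervical dislocation at ZT6 by the sample labels (within the hour from ZT6 by the study's text), the middle of the light phase, after 3 hours of wakefulness kept up with unfamiliar objects. Only 1 clock hour was sampled and no group was left to sleep, so neither phase nor amplitude of a rhythm, nor an effect of the wakefulness, was measured.

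The mammalian clock is a loop of transcription and repression that runs in nearly every cell and takes about a day to complete. ARNTL (BMAL1) and CLOCK bind E-box sequences as a dimer and switch on the *Per* and *Cry* genes, whose proteins return to the nucleus and repress the dimer. The same dimer drives *Nr1d1* and *Nr1d2*, whose products (REV-ERB alpha and beta) repress *Arntl*, and *Dbp*, whose product acts on D-box sequences of output genes. The suprachiasmatic nucleus (SCN) at the base of the hypothalamus sets the timing for the body, and clocks in other hypothalamic nuclei also respond to meals.

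The deposited values were whole reads per gene, and their sum lay between 16380781 and 16390598 in every library because the authors had re-sampled the libraries at random to a common number of reads. Reads are therefore given as deposited. All 10 genes averaged at least 50 reads, the filter for the tests, which 12768 genes passed. Per kilobase (kb) of merged exon sequence, *Nr1d1* was the most abundant, with 537 ± 40.4 reads per kb (SD, n = 21), followed by *Dbp* with 456 ± 63.7 and *Cry2* with 335 ± 24.8 reads per kb. *Nr1d2* (274 ± 44.0) and *Per1* (272 ± 37.8 reads per kb) did not differ beyond their spread, since *Nr1d2* was above *Per1* in 9 of 21 libraries. The level of *Cry1* was 152 ± 24.5 reads per kb and that of *Arntl* 145 ± 25.4, with *Cry1* above *Arntl* in 12 of 21 libraries. *Per2* (124 ± 10.9), *Clock* (123 ± 16) and *Per3* (107 ± 10.7 reads per kb) were the least abundant. *Per2* was above *Clock* in 14 of 21 libraries, and *Clock* above *Per3* in 20 of 21.

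**Figure D1:**
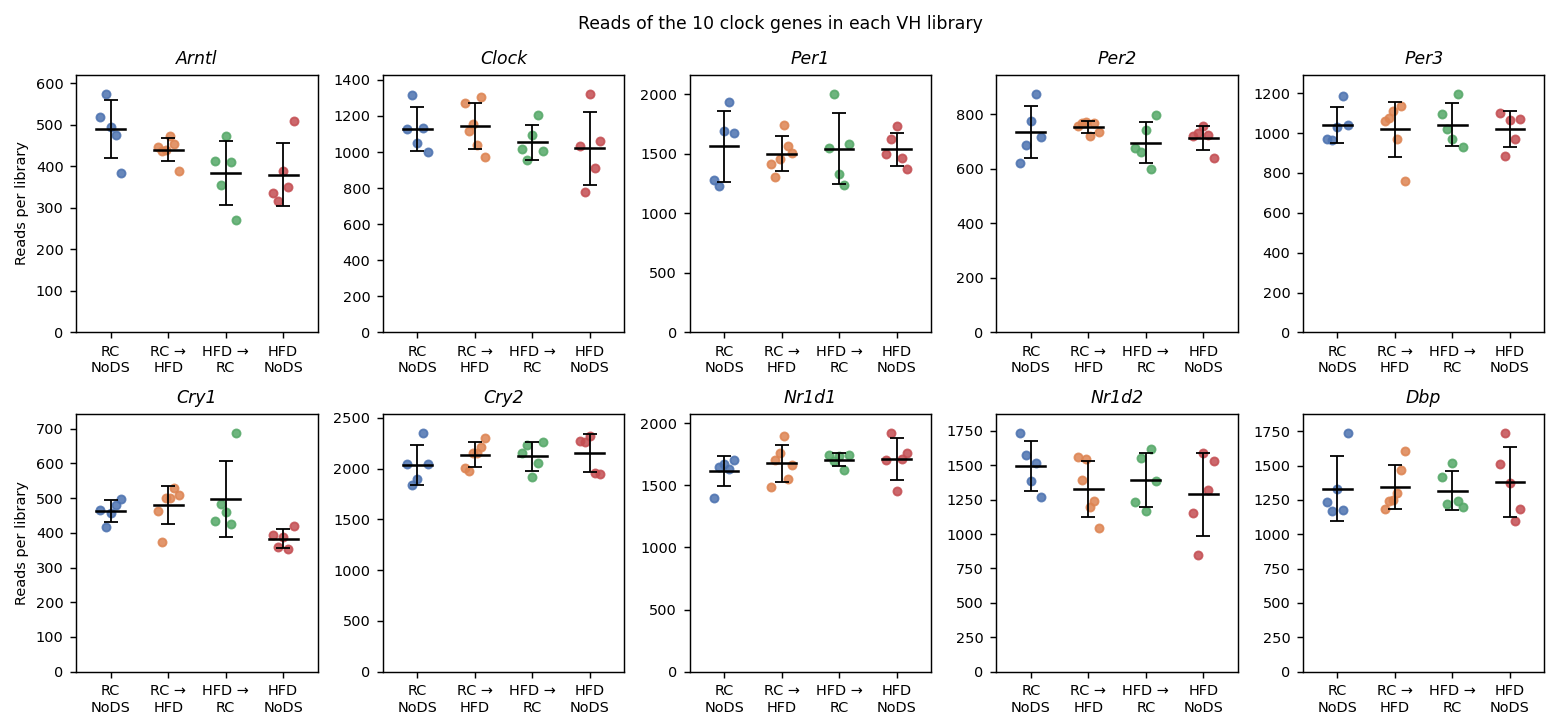
Reads of each clock gene in each library (points), by diet group, with the group mean (line) and SD (bars); both axes are linear and the reads start at 0. The 5 HFD NoDS libraries lie between 353 and 420 reads of *Cry1*, below all 5 HFD → RC libraries, which start at 425.

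Among the activators, *Arntl* encodes the partner that CLOCK needs to bind an E-box, and it is usually the most rhythmic gene of the positive limb. The RC NoDS libraries 1, 2, 3, 5 and 6 held 518, 575, 495, 476 and 384 reads of *Arntl*. The 6 RC → HFD libraries held between 389 and 472 reads, with a median of 443.5. The HFD → RC libraries 13 to 17 held 413, 354, 473, 410 and 270 reads, and the HFD NoDS libraries 19, 20, 21, 23 and 24 held 336, 317, 389, 350 and 508 reads. The groups overlapped, since HFD NoDS 24 lay among the higher RC NoDS libraries and RC NoDS 6 among the HFD NoDS libraries. Of the 10 libraries whose mice had eaten HFD in the earlier weeks, 8 lay below 454 reads, the median of the libraries with earlier RC.

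The fitted log2 fold change of *Arntl*, from the edgeR quasi-likelihood fit to all 21 libraries, was -0.35 in HFD NoDS relative to RC NoDS (95% interval -0.64 to -0.06). Its p adjusted over all 12768 genes was 0.657, above the threshold of 0.15, so *Arntl* was not called. In HFD → RC relative to RC NoDS the log2 fold change was -0.32 (-0.62 to -0.03, adjusted p = 0.573). For earlier diet, the mean of the groups first fed HFD minus the mean of those first fed RC, it was -0.27 (-0.48 to -0.07, adjusted p = 0.577), and for current diet -0.08 (-0.28 to 0.13, adjusted p = 0.935). With library complexity (the share of low genes missing from a library) as a covariate, the *Arntl* log2 fold changes were -0.17 in HFD NoDS relative to RC NoDS, -0.15 in HFD → RC relative to RC NoDS and -0.16 for earlier diet, with intervals that include 0. At a mean of 424 reads, counting alone gives an SD of 20.6 reads, against an SD of 74.4 reads over the 21 libraries.

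*Clock* encodes the other partner of the dimer and cycles little in most tissues. Its reads ran from 1003 to 1319 in RC NoDS, 973 to 1304 in RC → HFD, 956 to 1203 in HFD → RC and 778 to 1324 in HFD NoDS, so that the HFD NoDS libraries spanned the whole range of the others. The log2 fold change was -0.13 in HFD NoDS relative to RC NoDS (-0.35 to 0.10) and -0.12 in HFD → RC relative to RC → HFD (-0.34 to 0.10). With 1 library left out the *Clock* value in HFD NoDS relative to RC NoDS lay between -0.23 and -0.0488, and with GC and length trends removed it was 0.00.

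Of the repressors, *Cry1* encodes the strongest inhibitor of the dimer and its mRNA peaks later than those of the other repressors. The RC NoDS libraries held 467, 416, 456, 481 and 499 reads of *Cry1*, and the 6 RC → HFD libraries between 375 and 529 reads (median 500.5). The HFD → RC libraries held 434, 483, 460, 425 and 688 reads, and the HFD NoDS libraries 395, 358, 389, 353 and 420 reads. *Cry1* was thus lowest in HFD NoDS, where every library was below every HFD → RC library, and 14 of the 16 libraries of the other groups were above the highest HFD NoDS library. The exceptions were RC NoDS 2 and RC → HFD 8, and HFD → RC 17 stood well above all others.

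The log2 fold change of *Cry1* in HFD NoDS relative to HFD → RC was -0.38 (95% interval -0.65 to -0.12), with an adjusted p = 0.501. Without HFD → RC replicate 17 it was -0.24 (adjusted p = 0.625), and the adjusted p lay between 0.269 and 0.917 over the 31 other settings tried. In HFD NoDS relative to RC → HFD it was -0.33 (-0.58 to -0.08, adjusted p = 0.535), and relative to RC NoDS it was -0.26 (-0.52 to 0.00, adjusted p = 0.666). The interaction, which is the effect of current HFD in mice first fed HFD minus that in mice first fed RC, was -0.46 (-0.82 to -0.10, adjusted p = 0.414). With library complexity as a covariate the *Cry1* value relative to RC NoDS was -0.47 (-0.79 to -0.15, adjusted p = 1.00) and the interaction -0.30 (-0.67 to 0.08, adjusted p = 0.706). No *Cry1* difference was called. Counting alone gives an SD of 21.4 reads at its mean of 457 reads.

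*Cry2*, the second cryptochrome, held between 1840 and 2352 reads over the 21 libraries and overlapped in every pair of groups. Its log2 fold change was 0.10 in HFD NoDS relative to RC NoDS (-0.06 to 0.26) and -0.01 in HFD → RC relative to RC → HFD (-0.17 to 0.14). The first lay between 0.0606 and 0.16 with 1 library left out, and was -0.0888 with library complexity as a covariate.

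The period genes encode the partners of the cryptochromes, and *Per1* and *Per2* also respond within hours to light, hormones and neuronal activity. *Per1* averaged 1562 ± 298, 1499 ± 146, 1542 ± 298 and 1538 ± 140 reads in RC NoDS, RC → HFD, HFD → RC and HFD NoDS (SD, n = 5, 6, 5 and 5 libraries). *Per2* averaged 735.6 ± 96.4, 754 ± 21.2, 696.6 ± 76.8 and 714 ± 44.3 reads in the same order, and *Per3*, the least understood of the family, 1039.6 ± 90, 1018.5 ± 139, 1042 ± 107 and 1019.6 ± 90.1 reads. The group means of each period gene differed by less than the larger SD within a group. In HFD NoDS relative to RC NoDS the log2 fold changes were -0.01 for *Per1* (95% interval -0.26 to 0.25), -0.03 for *Per2* (-0.23 to 0.18) and -0.01 for *Per3* (-0.22 to 0.20). With library complexity as a covariate the first of these, for *Per1*, was -0.28 (-0.57 to 0.01, adjusted p = 1.00), the largest move of a clock gene in this comparison. Between the DS groups, HFD → RC relative to RC → HFD, they were 0.04 for *Per1* (-0.20 to 0.28), -0.11 for *Per2* (-0.31 to 0.08) and 0.03 for *Per3* (-0.17 to 0.23). That of *Per2* lay between -0.17 and -0.0648 with 1 library left out.

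In the second loop, *Nr1d1* and *Nr1d2* encode nuclear receptors that bind haem and repress *Arntl*. *Nr1d1* ran from 1402 to 1922 reads, with overlap in every pair of groups. Its log2 fold change was 0.10 in HFD NoDS relative to RC NoDS (-0.07 to 0.27) and 0.03 between the DS groups (-0.13 to 0.19). The first lay between 0.0484 and 0.16 with 1 library left out, and was 0.0144 with GC and length trends removed. *Nr1d2* held 1735, 1572, 1383, 1520 and 1267 reads in RC NoDS, between 1047 and 1560 (median 1317.5) in RC → HFD, 1234, 1552, 1170, 1621 and 1386 in HFD → RC and 1154, 849, 1586, 1317 and 1532 in HFD NoDS. The groups overlapped throughout, and HFD NoDS 20 and RC → HFD 12 were the lowest. Its log2 fold change was -0.20 in HFD NoDS relative to RC NoDS (-0.47 to 0.07, adjusted p = 0.721) and 0.07 between the DS groups (-0.19 to 0.32). With 1 library left out the *Nr1d2* value in HFD NoDS relative to RC NoDS lay between -0.28 and -0.0881, and with library complexity as a covariate it was -0.0159.

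*Dbp*, an output gene that peaks in the light phase in most tissues, held 1238, 1173, 1328, 1175 and 1738 reads in RC NoDS and between 1187 and 1610 (median 1277.5) in RC → HFD. The HFD → RC libraries held 1415, 1220, 1516, 1242 and 1196 reads and the HFD NoDS libraries 1510, 1735, 1372, 1098 and 1185 reads. RC NoDS 6 and HFD NoDS 20 were the highest, and all groups overlapped. The log2 fold change was 0.07 in HFD NoDS relative to RC NoDS (-0.18 to 0.33) and -0.03 between the DS groups (-0.27 to 0.21). The first lay between -0.0315 and 0.19 with 1 library left out, and was -0.0385 with library complexity as a covariate. Its sign also turned with GC and length trends removed. Reads of *Dbp* per read of *Arntl*, a ratio of an output to an activator, averaged 2.82 ± 0.981, 3.08 ± 0.554, 3.51 ± 0.543 and 3.79 ± 1.22 by group in the same order, with overlap. The ratio was not tested.

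RC NoDS v HFD NoDS compares mice kept on 1 diet throughout. In edgeR 0 of the 10 clock genes were called in it, where 0.0783% of all tested genes were, and 1 (*Arntl*) had an unadjusted p under 0.05, where 7.41% of all genes did. DESeq2 and limma-voom also called 0, with 2 and 1 at an unadjusted p under 0.05. No clock gene had groups that did not overlap, against 0.893% of all genes. The median log2 fold change of the 10 was -0.02 and their median size 0.10, beside 0.01 and 0.11 over all 12768 genes.

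RC → HFD v HFD → RC compares groups whose diets had just moved in opposite directions. By edgeR, DESeq2 and limma-voom 0 of the 10 were called (0.00783% of all genes in edgeR), 0 were at an unadjusted p under 0.05 (5.35%) and 0 were without overlap (0.486%). The fold change of *Arntl*, the largest of the 10, was -0.20 on the log2 scale (-0.48 to 0.09), and between -0.29 and -0.0900 with 1 library left out (the latter without HFD → RC 17). The median log2 fold change was 0.01 with a median size of 0.05, beside 0.00 and 0.09 over all genes.

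**Figure D2:**
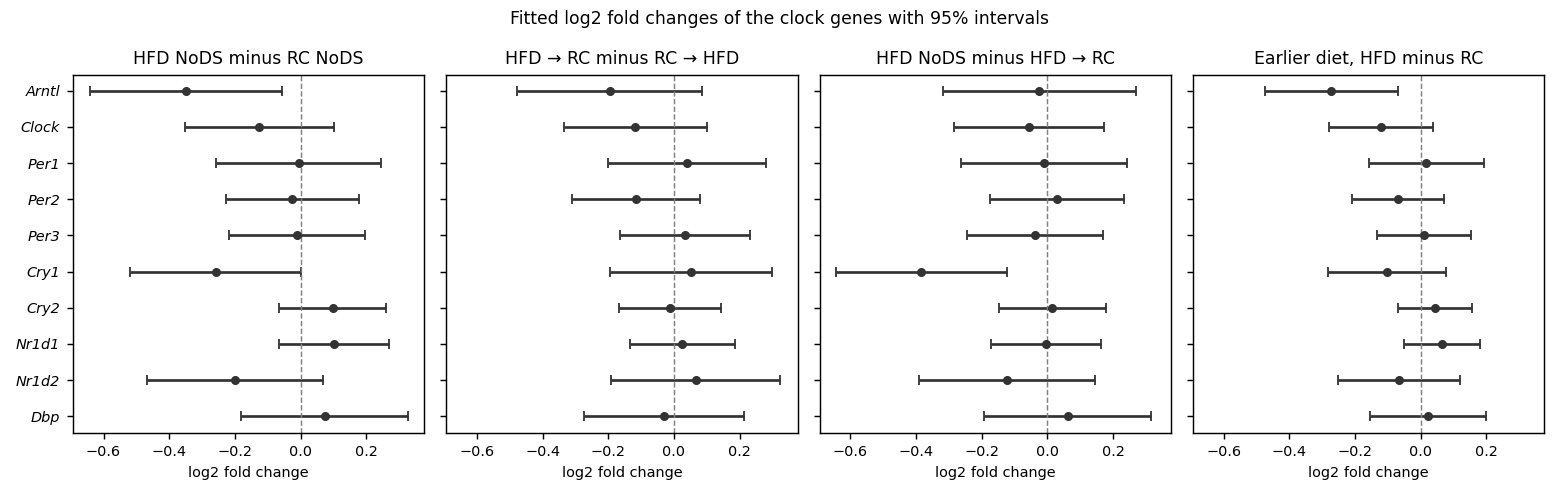
Log2 fold change of each clock gene (points) with its 95% interval (bars) from the edgeR fit, in 3 pairs of groups and for earlier diet; the dashed line marks no difference. The intervals of *Arntl* in HFD NoDS minus RC NoDS and for earlier diet and of *Cry1* in HFD NoDS minus HFD → RC lie below 0, and none of these passed the adjusted threshold of 0.15.

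The other pairs share groups with those above and with each other. RC NoDS v RC → HFD, a week of HFD after RC against RC throughout, gave 0 calls among the 10 in edgeR (0.0392% of all genes), 0 at an unadjusted p under 0.05 (6.51%) and 0 without overlap (1.17%). Limma-voom also gave 0 and 0. DESeq2 gave 0 at an unadjusted p under 0.05 and, because its own filter kept only 886 genes in this comparison, no adjusted p for any of the 10. RC NoDS v HFD → RC, in which both groups ate RC at the end, gave 0 calls (0.282%), 1 (*Arntl*) at an unadjusted p under 0.05 (8.1%) and 0 without overlap (1.32%). RC → HFD v HFD NoDS, in which both ate HFD at the end, gave 0 calls (0.0157%), 1 (*Cry1*) at an unadjusted p under 0.05 (7.49%) and 0 without overlap (0.744%). HFD → RC v HFD NoDS, HFD throughout against a week of RC after HFD, gave 0 calls (0.0705%), 1 (*Cry1*) at an unadjusted p under 0.05 (7.93%) and 1 (*Cry1*) without overlap (1.02%). In each of these last 3 pairs DESeq2 and limma-voom gave 0 calls and 1 gene at an unadjusted p under 0.05.

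Across all 4 groups edgeR called 0 of the 10 (0.149% of all genes), and 1 (*Cry1*, adjusted p = 0.568) had an unadjusted p under 0.05 (7.97%). For current diet, HFD minus RC at the end, it called 0 (0.047%), with 0 at an unadjusted p under 0.05 (5.22%). For earlier diet it called 0 (0.0705%), with 1 (*Arntl*) at an unadjusted p under 0.05 (7.27%). For the interaction it called 0 (0.0313%), with 1 (*Cry1*) at an unadjusted p under 0.05 (8.84%). DESeq2 and limma-voom called 0 in each of these 4 tests, and gave 1, 0, 1 and 1 genes at an unadjusted p under 0.05. The widths of the intervals set what could be seen. For *Nr1d1* in HFD NoDS relative to RC NoDS, for example, the interval ends at a log2 fold change of 0.27.

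A wider list of 27 clock genes beyond the 10 gave 0 calls in all 10 tests in edgeR. Genes at an unadjusted p under 0.05, with the share of all tested genes in brackets, numbered 2 in RC NoDS v HFD NoDS (7.41%), 4 between the DS groups (5.35%), 4 in RC NoDS v RC → HFD (6.51%), 2 in RC NoDS v HFD → RC (8.1%), 2 in RC → HFD v HFD NoDS (7.49%) and 1 in HFD → RC v HFD NoDS (7.93%). They numbered 5 across all 4 groups (7.97%), 4 for current diet (5.22%), 3 for earlier diet (7.27%) and 2 for the interaction (8.84%). Genes of the list without overlap numbered 1 in RC NoDS v HFD NoDS (0.893% of all genes), 2 between the DS groups (0.486%), 1 in RC NoDS v HFD → RC (1.32%) and 0 in the other pairs. The 5 with the smallest p across all 4 groups are described here. The fold change of each is given in 1 comparison only, where its adjusted p was the smallest of the list. Their intervals were thus picked from several and are not typical of these genes. *Nfil3*, whose product competes with DBP at D-boxes, averaged 236 ± 12.9, 227 ± 29.0, 264 ± 40.2 and 315 ± 46.6 reads by group, from RC NoDS to HFD NoDS in the order above. In HFD NoDS relative to RC → HFD its log2 fold change was 0.46 (0.17 to 0.76, adjusted p = 0.482).

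*Fbxl21*, an F-box protein that acts on cryptochromes, averaged 159 ± 19.1 reads in RC NoDS, 124 ± 41.0 in RC → HFD, 219 ± 33.6 in HFD → RC and 170 ± 56.1 in HFD NoDS. The DS groups did not overlap, with at most 171 reads in RC → HFD and at least 174 in HFD → RC. HFD → RC was higher by a log2 fold change of 0.82 (0.35 to 1.30, adjusted p = 0.647). *Usp2*, a deubiquitinase driven by the dimer, was the other listed gene whose DS groups did not overlap. *Bhlhe40* (DEC1), a repressor at E-boxes, was higher in every HFD NoDS library than in every RC NoDS library (log2 fold change 0.24, 0.08 to 0.41, adjusted p = 0.640). *Rgs16*, a regulator of G-protein signalling that cycles in the SCN, had no overlap in RC NoDS v HFD → RC. The highest RC NoDS library held 477 reads of it and the lowest HFD → RC library 478. *Tef*, a D-box activator related to *Dbp*, had an interaction of -0.25 (-0.43 to -0.08, adjusted p = 0.308). *Gm129*, an older symbol of *Ciart*, whose product represses the dimer, was lower in HFD NoDS than in HFD → RC by a log2 fold change of -0.70 (-1.18 to -0.22, adjusted p = 0.505). None of these 5 genes was called in these comparisons under any of the other settings tried.

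The clock genes differed in how far libraries of the same group lay apart. After removal of group means from the log2 of reads scaled to library size (log2 CPM), the SD was 0.24 for *Nr1d2*, which exceeded that of 94.2% of the 500 tested genes nearest in level. For *Per1* it was 0.22 (90.8%) and for *Dbp* 0.22 (88.8%). *Clock* had an SD of 0.18 (65.6%), *Arntl* 0.23 (43.8%), *Per3* 0.16 (43.6%) and *Cry2* 0.12 (36.0%). *Nr1d1* with 0.12 (26.6%), *Cry1* with 0.18 (17.2%) and *Per2* with 0.13 (6.0%) were steadier than most genes of their level.

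Within groups, 2 of the 45 pairs of clock genes were correlated at an adjusted p under 0.05 (two-sided permutation tests with libraries permuted within groups, adjusted over the 45 pairs). The share of pairs of other tested genes that would pass was not measured. Whether this count is particular to clock genes was therefore not tested. With the 2 libraries farthest on the first gene left out, *Nr1d1* with *Clock* (r = -0.659) and *Arntl* with *Clock* (r = 0.568) passed too (both adjusted p = 0.0407). The values that follow are over all 21 libraries unless stated. *Nr1d2* and *Dbp* ran in opposite directions, with Pearson r = -0.788 (permutation p = 0.00028, adjusted 0.0126) and Spearman rho = -0.713 (permutation p = 0.00194, adjusted 0.0437). Without RC → HFD 12 and HFD NoDS 20, the libraries farthest from the median of *Nr1d2*, r was -0.680, and without RC NoDS 6 and HFD NoDS 20, farthest on *Dbp*, it was -0.703. Within RC NoDS, RC → HFD, HFD → RC and HFD NoDS r was -0.842, -0.885, -0.818 and -0.752, each over 5 or 6 libraries and given as a description. *Per1* and *Cry2* ran together, with r = 0.694 (permutation p = 0.00105, adjusted 0.0236) and rho = 0.692 (permutation p = 0.00114, adjusted 0.0437), and r was 0.663 without RC NoDS 2 and HFD → RC 14 (farthest on *Per1*) and 0.606 without RC NoDS 5 and HFD NoDS 24 (farthest on *Cry2*). *Nr1d1* with *Clock* (r = -0.678, permutation p = 0.00667, adjusted 0.075; rho = -0.423, permutation p = 0.0898, adjusted 0.314; r = -0.659 without RC NoDS 1 and HFD NoDS 21, farthest on *Nr1d1*, and -0.439 without HFD NoDS 20 and HFD NoDS 21, farthest on *Clock*) did not pass. Neither did *Nr1d1* with *Nr1d2* (r = -0.656, permutation p = 0.00632, adjusted 0.075; rho = -0.552, permutation p = 0.0189, adjusted 0.151; r = -0.569 without RC NoDS 1 and HFD NoDS 21 and -0.600 without RC → HFD 12 and HFD NoDS 20).

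Base composition moved with these relations. In each library, the slope of log2 CPM on the GC share of a gene's exons, relative to the mean of all libraries and fitted together with exon length, ran from -0.26 (RC NoDS 2) to 0.38 (HFD NoDS 20) per 10 points of GC. Merged exons of *Nr1d2* hold 41.5% GC and those of *Clock* 42.3%, against 58.0% for *Dbp* and 58.7% for *Per1*, and the median of tested genes was 50.2%. The slope was fitted over all tested genes, among which *Nr1d2*, *Dbp* and *Per1* lie at percentiles 8.3, 89.7 and 92.2 of GC share. How many other genes of like GC share follow the slope was not counted, so the relations below are not particular to clock genes. Over the 21 libraries and within groups, the GC slope was correlated with *Nr1d2* at r = -0.787 (permutation p = 0.00031, adjusted over 100 relations 0.0185) and rho = -0.727 (permutation p = 0.00051, adjusted 0.0255). With *Dbp* it gave r = 0.765 (permutation p = 0.00037, adjusted 0.0185) and rho = 0.692 (permutation p = 0.00249, adjusted 0.0415), and with *Per1* r = 0.680 (permutation p = 0.00121, adjusted 0.0272) and rho = 0.768 (permutation p = 0.00051, adjusted 0.0255). Without RC NoDS 6 and HFD NoDS 20 these r were -0.657, 0.600 and 0.758. *Clock* did not pass by r or rho (r = -0.590 with an adjusted permutation p of 0.121, and r = -0.392 without the same libraries). Nor did *Nr1d1*, with 56.4% GC (r = 0.568 with an adjusted permutation p of 0.158, and r = 0.402 without the same libraries). *Cry2* passed by rho only (r = 0.617, permutation p = 0.0112, adjusted 0.0801; rho = 0.692, permutation p = 0.00184, adjusted 0.0386; r = 0.667 without the same libraries).

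**Figure D3:**
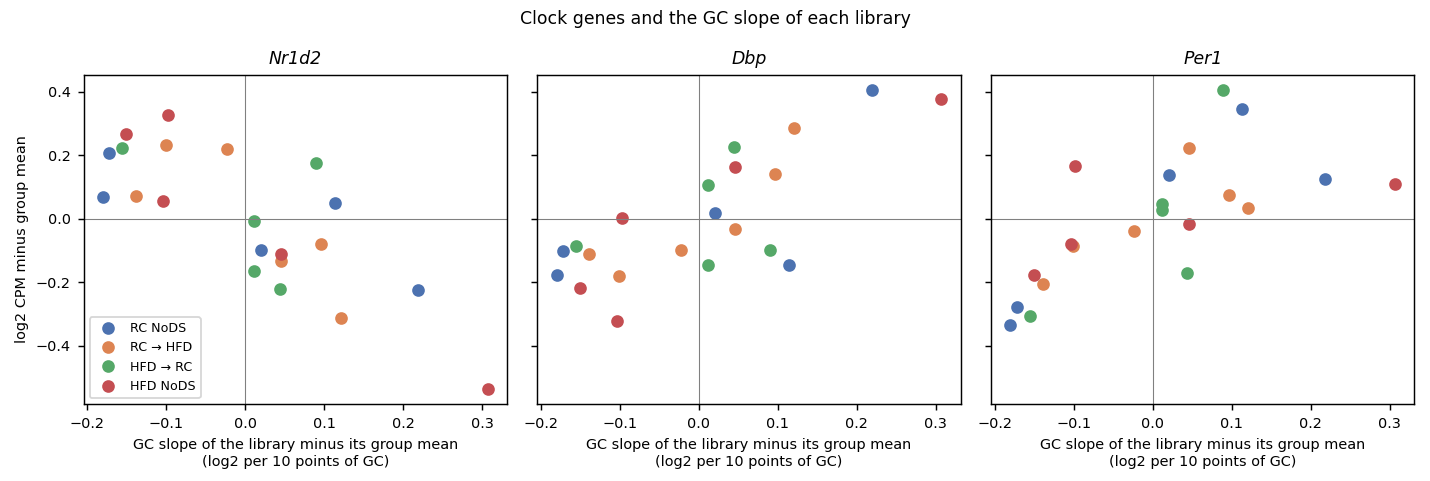
Log2 CPM of 3 clock genes (y axis, group mean removed) against the GC slope of the library (x axis, log2 per 10 points of GC, group mean removed), 1 point per library coloured by group. *Nr1d2* runs down (r = -0.787) and *Dbp* (r = 0.765) and *Per1* (r = 0.680) run up.

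With each library's trends on GC share and exon length removed, a setting added after seeing the data, 0 of the 45 pairs passed. *Nr1d2* and *Dbp* then had r = -0.541 (permutation p = 0.0233, adjusted 0.359) and rho = -0.564 (permutation p = 0.0169, adjusted 0.380), and *Per1* and *Cry2* had r = 0.448 (permutation p = 0.0624, adjusted 0.468) and rho = 0.396 (permutation p = 0.113, adjusted 0.544). The signs of both relations were kept, and both were smaller. Whether base composition or the biology of the genes sets these relations was not tested.

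**Figure D4:**
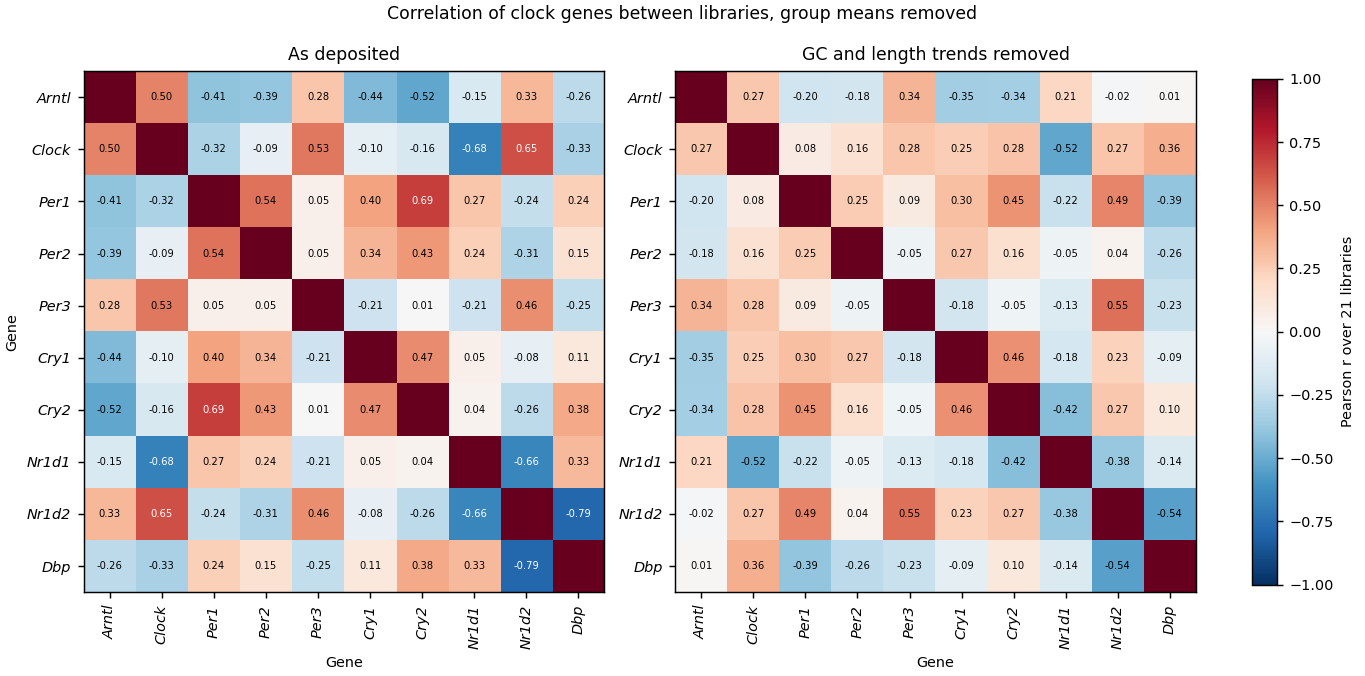
Pearson r between clock genes over 21 libraries with group means removed, as deposited (left) and with each library's GC and length trends removed (right); colours run from -1 (blue) to 1 (red). *Nr1d2* and *Dbp* go from -0.788 to -0.541, and *Per1* and *Cry2* from 0.694 to 0.448.

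Other measures of the libraries were correlated with single clock genes among the same 100 relations. Library complexity was taken from the percentage of 3116 low genes, with means of 5 to 50 reads, that were missing from a library. A higher percentage means lower complexity. This percentage ran from 1.12% to 7.22% in RC NoDS, 2.31% to 22.4% in RC → HFD, 5.68% to 31.9% in HFD → RC and 7.70% to 32.9% in HFD NoDS, and so differed between RC NoDS and HFD NoDS without overlap. Its log2 was correlated with *Cry2* (r = 0.697, permutation p = 0.00073, adjusted 0.0243; rho = 0.696, permutation p = 0.00088, adjusted 0.0293; r = 0.619 without RC NoDS 5 and RC → HFD 8). The slope on exon length was correlated with *Per3* (r = 0.616, permutation p = 0.00136, adjusted 0.0272; rho = 0.617, permutation p = 0.0043, adjusted 0.0549; r = 0.605 without RC NoDS 1 and RC NoDS 5). *Per3* has the longest exons of the 10, with 9608 bases.

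*Arntl* was lower where the mean log2 CPM of the temperature-sensitive genes tested was higher (r = -0.712, permutation p = 0.00286, adjusted 0.0318; rho = -0.719, permutation p = 0.00193, adjusted 0.0386). Without HFD → RC 13 and HFD → RC 17 this r was -0.602. The list joins cold-induced genes (*Cirbp*, *Rbm3*) with heat shock genes (*Hspa1a*, *Hspa1b*, *Hsph1*, *Dnajb1*), so its mean has no direction in temperature. *Clock* was lower where the mean of the oligodendrocyte markers was higher (r = -0.641, permutation p = 0.00176, adjusted 0.0293; rho = -0.648, permutation p = 0.00528, adjusted 0.0587; r = -0.626 without HFD → RC 14 and HFD → RC 16). The mean of the markers of the ventromedial nucleus was correlated with *Dbp* (r = 0.7, permutation p = 0.00251, adjusted 0.0318; rho = 0.686, permutation p = 0.00439, adjusted 0.0549; r = 0.578 without HFD → RC 15 and HFD NoDS 20). It was also correlated with *Nr1d2* (r = -0.701, permutation p = 0.00285, adjusted 0.0318; rho = -0.613, permutation p = 0.011, adjusted 0.0984; r = -0.556 without the same libraries). The mean of the immediate early genes had r = 0.556 with *Per1* (permutation p = 0.00555, adjusted 0.0538; rho = 0.561, permutation p = 0.0121, adjusted 0.0984; r = 0.524 without RC NoDS 5 and HFD NoDS 20). With *Cry2* it had r = 0.630 (permutation p = 0.00592, adjusted 0.0538; rho = 0.622, permutation p = 0.0128, adjusted 0.0984; r = 0.539 without the same libraries), and neither passed. By rho, the relations of *Per3*, *Clock*, *Dbp* and *Nr1d2* in these measures did not pass 0.05 after adjustment. The ventromedial mean is that of 2 markers, and *Dbp* and *Nr1d2* also followed the GC slope, with the same signs. Relations with the marker lists were not repeated with GC and length trends removed. The part of base composition, cell content, dissection or library complexity in any of these relations was not tested.

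For each clock gene, the 3 other tested genes most like it over the 21 libraries, by Pearson r of log2 CPM with group means removed, were as follows. *Arntl* was most like *Oxct1* (r = 0.883), *Lgals8* and *Gucy1b3*, and *Clock* most like *Prpf39* (0.867), *Peg3* and *Bod1l*. *Per1* was most like *Syt12* (0.839), *Rps19* and *Lrrc68*, *Per2* most like *Purb* (0.799), *Cspg4* and *Farp1*, and *Per3* most like *D10Bwg1379e* (0.870), *Prpf8* and *Cacna1b*. *Cry1* was most like *Gtf2i* (0.803), *Stat5b* and *Fam53a*, and *Cry2* most like *Safb* (0.839), *Zfp574* and *Dbn1*. *Nr1d1* was most like *Tmem132b* (0.807), *Dag1* and *Xpo6*, *Nr1d2* most like *Nup160* (0.891), *Mettl16* and *A930001N09Rik*, and *Dbp* most like *Dnm1* (0.889), *Cacng7* and *Kifc2*. No clock gene outside the 10 was among these 30.

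The tissue was checked against markers of the nuclei it could hold. Markers of the arcuate nucleus, led by *Pomc*, summed to 16879 ± 2802, 16415 ± 2886, 15655 ± 3003 and 18126 ± 2524 reads by group, in the same order. Those of the ventromedial nucleus, led by *Nr5a1*, averaged 1869, 2552, 2467 and 2048 reads. Those of the paraventricular nucleus, led by *Avp*, averaged 16458, 15456, 12485 and 16863 reads, although *Avp* is also made in the supraoptic nucleus and the SCN and *Crh* and *Sim1* averaged 8.14 and 41.4 reads. Markers of the lateral hypothalamus, led by *Pmch*, averaged 869, 1655, 1183 and 1558 reads.

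The 6 SCN markers summed to 625.2 ± 58.3, 687 ± 198, 698 ± 145 and 780 ± 230 reads. *Six6*, with a mean of 433 reads, was the most abundant and is not limited to the SCN. *Vip* averaged 45.9 reads (0 to 405, the highest in HFD NoDS 20), *Prok2* 31.4, *Nms* 7.71 and *Grp* 49.8 reads, all below the filter. The share of SCN cells in the punches was not measured. *Lhx1*, a marker of SCN neurons with a mean of 129 reads, was called higher in HFD → RC than in RC NoDS (log2 fold change 1.12, 0.56 to 1.68, adjusted p = 0.140). It was called in 15 of the 31 other settings (adjusted p between 0.0275 and 0.752, the latter with library complexity as a covariate). Its log2 fold change lay between 0.95 and 1.24 over them. The whole list summed to 625.2 ± 58.3 reads in RC NoDS (567 to 708) and 698 ± 145 in HFD → RC (518 to 865). These ranges overlap, so the call is of 1 marker and not of the list. *Vip*, *Prok2*, *Nms* and *Grp* were not tested in the main fit, and the change of *Six6* is not given.

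Of the other lists, the 10 immediate early genes (*Egr1* the most abundant) summed to 2286, 2203, 2357 and 2415 reads in RC NoDS, RC → HFD, HFD → RC and HFD NoDS. The 6 glucocorticoid targets (*Tsc22d3*) summed to 5297, 4636, 5200 and 4849. The 6 temperature-sensitive genes, led by *Hsph1* with a mean of 9670 reads, summed to 14294, 14406, 15144 and 14365. Among the latter *Rbm3*, a cold-induced RNA-binding protein, fell in RC → HFD relative to RC NoDS (log2 fold change -0.62, -0.83 to -0.41, adjusted p = 0.00433), a call kept in 29 of the 30 other settings that gave it an adjusted p. With library complexity as a covariate the call was lost (adjusted p = 0.178) and the fold was -0.56. Astrocyte markers (*Slc1a3*) averaged 19089, 18373, 20825 and 20880 reads, microglial markers (*Csf1r*) 3120, 3209, 3450 and 3551 and endothelial markers (*Flt1*) 1881, 2106, 2073 and 2039. Choroid plexus markers (*Kl*) averaged 429, 360.2, 372 and 361 reads, with *Ttr* at 33.8, and blood markers (*Hbb-b1*) 2945, 1309, 2479 and 1897. Pituitary markers (*Cga*) had medians of 445, 273, 106 and 337 reads and ran from 2 to 2692, the highest in a single HFD → RC library.

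Oligodendrocyte markers summed to 23738 ± 5208, 27587 ± 4416, 47189 ± 21933 and 38209 ± 15175 reads, mostly from *Mbp*. The means were higher in both groups first fed HFD, in which *Arntl* averaged 384 and 380 reads against 489.6 and 440.0, but the ranges overlapped (22861 to 80254 in HFD → RC against 18638 to 30934 in RC NoDS). *Mbp* rose in HFD → RC relative to RC NoDS (log2 fold change 1.04, adjusted p = 0.115), called in 21 of the 31 other settings but not with library complexity as a covariate (0.89, adjusted p = 0.860). The other 2 markers, *Mag* (0.85, adjusted p = 0.168) and *Mog* (0.64, adjusted p = 0.415), were not called there. *Mbp* (0.75, adjusted p = 0.142) and the astrocyte gene *Gfap* (0.73, adjusted p = 0.0891) were called for earlier diet, in 13 and 16 of the 30 other settings, and neither with library complexity as a covariate. Over those 30 settings the log2 fold change lay between 0.61 and 0.84 for *Mbp* and between 0.58 and 0.80 for *Gfap*. The other astrocyte markers were not called for earlier diet (log2 fold change -0.02 for *Slc1a3*, 0.09 for *Aqp4* and 0.09 for *Aldh1l1*). In bulk tissue, fewer cells of a type and less RNA per cell cannot be told apart. Within groups the mean of the oligodendrocyte markers and *Arntl* were not correlated after adjustment (r = -0.294, permutation p = 0.371, adjusted 0.617; rho = -0.334, permutation p = 0.222, adjusted 0.505; r = -0.265 without HFD → RC 14 and HFD → RC 16), and the part of cell content in the group means of *Arntl* was not tested.

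On the genome (mm9, the build of the deposited counts), *Arntl* lies at chr7:120350979-120457636 (+) and *Cry1* at chr10:84594447-84647799 (-). The 3 clock genes that share exon sequence with a neighbour do so on opposite strands. The libraries were made with a stranded kit (TruSeq Stranded mRNA), and the deposited description does not say whether reads were counted by strand. *Nr1d1* shares 263 bases with *Thra*, which averaged 13539 reads, *Dbp* shares 491 bases with *Sphk2* (925 reads) and *Cry2* shares 295 bases with *D930015M05Rik* (0.762 reads). Some reads of *Nr1d1* and *Dbp* could therefore belong to the neighbour, and their share was not measured.

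Promoter windows from RefSeq (build GRCm38.p6, 250 bases before to 50 after each start) were found for 9 of the 10 genes. None for *Per2* was among the windows used, so *Per2* was not searched. They were searched on both strands for the E-box CACGTG, the D-box TTATGTAA, the CRE TGACGTCA and the RORE site TAGGTCA. Of all 32851 windows, 7.15% hold the E-box, 0.938% the D-box, 1.79% the CRE and 2.61% the RORE site. *Cry1* and *Per1* each had 1 E-box, at 60 and 166 bases before the start, and *Per3* had 2 D-boxes, at 205 and 158 bases before it. *Arntl* had 1 RORE site 30 bases after the start, and none of the 9 clock genes searched had the CRE. The stretches are shown because they are the letters that the loops described above read, in the clock gene without overlap between HFD → RC and HFD NoDS (*Cry1*) and in 2 period genes; each is given on the gene's strand with 20 bases on either side, and capitals mark the motif. A match is a description of the letters and not of binding.
Cry1 E-box, chr10:85185089-85185134 (-): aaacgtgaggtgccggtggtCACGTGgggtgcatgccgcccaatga
Per1 E-box, chr11:69098763-69098808 (+): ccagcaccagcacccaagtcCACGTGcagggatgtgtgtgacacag
Per3 D-box, chr4:151044843-151044890 (-): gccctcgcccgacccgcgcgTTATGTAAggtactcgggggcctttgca
Per3 D-box, chr4:151044796-151044843 (-): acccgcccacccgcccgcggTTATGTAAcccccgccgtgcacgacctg
Of the wider list, *Ciart* had 3 E-boxes in its window, *Bhlhe41*, *Cipc* and *Tef* had E-boxes, *Timeless* had a D-box, *Hlf* had the CRE and *Nfil3* had a RORE site.

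Each group held 5 or 6 pools of 2 mice, so differences between single animals were not measured, and in HFD NoDS relative to RC NoDS the interval of every clock gene reaches a log2 fold change above 0.20 in size in at least 1 direction. The values are mRNA of bulk tissue at 1 clock hour after enforced wakefulness. A change in the phase of a clock gene and a change in its mean level cannot be told apart in them, and protein was not measured. Library complexity differed between the groups kept on 1 diet, and its part in the levels of the clock genes cannot be separated from that of diet.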

How the data were processed

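PolyA RNA of VH punches was measured in 21 libraries, each of 2 mice. The authors aligned 100 bp single-end reads to mm9 with STAR 2.5.1b, used Picard 2.7.1, dropped reads of mitochondrial and ribosomal origin, re-sampled each library to a common depth and deposited counts, the whole reads per gene (16380781 to 16390598 per library). Groups came from the sample labels, and all libraries were kept.

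Genes with a mean of at least 50 reads were fitted in edgeR 4.0.16 (R 4.3.3; TMM, quasi-likelihood F-test, 1 mean per group). P-values were adjusted by the Benjamini-Hochberg method over all 12768 genes, with a threshold of 0.15, in 10 comparisons. Alternatives were DESeq2 1.42.0, limma-voom (limma 3.58.1), a filter of 5 reads or none, library size or DESeq2 scaling, robust dispersion, library complexity as a covariate, only the groups compared, each library left out and, added after seeing the data, each library's GC and length trends removed. Correlations used log2 CPM (prior count 2) with group means removed and 100000 two-sided permutations of libraries within groups (Python 3.11.15, numpy 2.4.6, pandas 2.3.3; figures with matplotlib 3.10.9). Intervals are 95%. Reads are not independent molecules, so counting error covers the sampling of reads only. The tests were tested on simulated data, and no result of that is given here.

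The members and lists were chosen with earlier results of these data known. Named genes are all members, the 5 genes of the wider clock list with the smallest p across all 4 groups, the 3 genes most like each member and genes that overlap a member. *Usp2* and *Rgs16* and the markers with values were named after their values were seen. The marker lists were nuclei of the hypothalamus (arcuate, ventromedial, paraventricular, lateral, SCN), immediate early genes, glucocorticoid targets, temperature-sensitive genes, astrocytes, oligodendrocytes, microglia, endothelium, choroid plexus, pituitary and blood. The oligodendrocyte list was shortened by 1 gene after the data were seen, and its values with that gene are not given.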

Additional observations from a re-analysis of the deposited data

Results flagged for a closer look

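Within single groups, 3 values stood far from the other libraries by Dixon's ratio, the gap to the nearest library divided by the range of the group, on log2 CPM. *Per2* in HFD NoDS 24 was the lowest of its group (639 reads, ratio 0.729), *Cry1* in HFD → RC 17 was the highest of its group (688 reads, ratio 0.711) and *Nr1d1* in RC NoDS 1 was the lowest of its group (1402 reads, ratio 0.787). The critical value is 0.71 for 5 libraries and 0.625 for 6. Of 40 combinations of gene and group tested, 3 passed the value for their group size. This is near the share that chance passes, about 1 in 20. The causes were not tested.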

How the results depend on the processing

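In the main edgeR fit and under 31 other settings, DESeq2 and limma-voom among them, 0 of the 10 clock genes were called in any comparison (smallest adjusted p 0.199, for the *Cry1* interaction with GC and length trends removed). The number of clock genes at an unadjusted p under 0.05 moved with the library left out: from 1 to between 0 and 3 in RC NoDS v HFD NoDS, 0 and 2 across all 4 groups, 0 and 1 in RC NoDS v HFD → RC, and 1 and 2 in RC → HFD v HFD NoDS and for earlier diet. Library complexity as a covariate moved the interaction and RC NoDS v HFD → RC from 1 to 0 and current diet from 0 to 1, and the 1 gene in RC NoDS v HFD NoDS and for earlier diet was then *Cry1* in place of *Arntl*. DESeq2 gave the 10 no adjusted p in RC NoDS v RC → HFD, where its filter kept 886 genes. Of 38 fold changes, 27 kept their sign under every setting, among them all given for *Arntl* and *Cry1* except *Cry1* between the DS groups. With library complexity as a covariate, the log2 fold change of *Arntl* went from -0.35 to -0.17 in RC NoDS v HFD NoDS, from -0.32 to -0.15 in RC NoDS v HFD → RC and from -0.27 to -0.16 for earlier diet. In RC NoDS v HFD NoDS that of *Cry1* went from -0.26 to -0.47, that of *Per1* from -0.01 to -0.28, and that of *Nr1d2* from -0.20 to -0.0159. The *Cry1* interaction went from -0.46 to -0.30. With GC and length trends removed *Clock* went from -0.13 to 0.00 in RC NoDS v HFD NoDS. The cause was not tested.

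In RC NoDS v HFD NoDS the sign turned for *Per1* with limma-voom (0.0135), for *Per3* (0.0525), *Cry2* (-0.0888) and *Dbp* (-0.0385) with library complexity as a covariate, and for *Dbp* (-0.0212) with GC and length trends removed, a setting chosen after seeing the data. With each library left out in turn the log2 fold change there lay between 0.0606 and 0.16 for *Cry2*, 0.0484 and 0.16 for *Nr1d1*, -0.47 and -0.29 for *Arntl*, -0.30 and -0.23 for *Cry1*, -0.0824 and 0.0886 for *Per1*, -0.0838 and 0.0504 for *Per2*, -0.0446 and 0.0462 for *Per3*, -0.28 and -0.0881 for *Nr1d2*, -0.23 and -0.0488 for *Clock* and -0.0315 and 0.19 for *Dbp*. Between the DS groups it turned with library complexity for *Per1* (-0.0408) and *Cry1* (-0.0102), and with each library left out it lay between -0.0755 and 0.11 for *Per1*, -0.0369 and 0.0750 for *Per3*, -0.0884 and 0.10 for *Cry1*, -0.0341 and 0.0196 for *Cry2*, -0.00859 and 0.0633 for *Nr1d1*, -0.0900 and 0.0319 for *Dbp*, -0.17 and -0.0648 for *Per2*, 0.00671 and 0.12 for *Nr1d2*, -0.29 and -0.0900 for *Arntl* and -0.17 and -0.0749 for *Clock*. The main values of the folds that turned lay within 0.10 of 0, and the cause was not tested.

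The number of correlated pairs of clock genes, 2, was 4 with the 2 libraries farthest on the first gene left out and 0 with GC and length trends removed; the cause was not tested. Counting error is an SD of 20.6 reads at the level of *Arntl*, the lowest member by mean reads, against 74.4 reads over the 21 libraries. The SD over the 21 libraries includes the differences between groups. Within RC NoDS, RC → HFD, HFD → RC and HFD NoDS the SD of *Arntl* was 69.8, 27.8, 76.4 and 76.3 reads. What sets this spread was not tested.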
